A study of Mus musculus with 24 samples.

Results

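Neutrophil-type genes (Elane, Mpo, Prtn3, Ngp, Lcn2, Mmp8, Chil3, Lrg1, Wfdc21 and Ly6g) were followed through Ly6Chi and Ly6Clo monocytes from mouse peripheral blood (PB). They were chosen by gene symbol, 10 of 53715 genes in the table, after their levels in these libraries had been seen. Under imiquimod (IMQ), Lcn2, Lrg1 and Wfdc21 stood at 259 to 2861 normalized counts in Ly6Chi cells, against 18 or less in every Sham library, and Chil3, Mmp8 and Prtn3 stood 2.30-fold or more higher. Ly6g, whose product is the antigen used to exclude neutrophils from the sort, was at 0 in all 16 IMQ libraries. In Ly6Clo cells of IMQ-treated mice the fitted genes were far lower, and among them Mmp8, Chil3 and Wfdc21 were called higher in Notch2-deficient than in wt cells. These 3 calls were lost without replicate 1, 2 or 4 and in the second library series (replicates 3 and 4 alone). They were also lost with no filter on low values. Several markers of Ly6Chi cells, though not all, were higher in the same mutant libraries.

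The 24 libraries formed 6 groups of 4. The mice were C57BL/6 animals of 8 to 10 weeks whose monocytes carried GFP from the Cx3cr1 locus on 1 allele. In N2ΔMy mice, Cre expressed from the Lyz2 locus deleted a floxed Notch2 in myeloid cells, and wt mice were littermate controls. Ly6Chi cells of both genotypes were taken after Sham cream, and Ly6Chi and Ly6Clo cells of both genotypes after IMQ, given as 50 mg per mouse and day of Aldara, a cream with 5% of the TLR7 agonist, for 4 to 5 days on depilated skin. Cells were sorted on day 5 as CD11b+ GFP+ CD115+ cells without lineage markers, Ly6G among them. There was no Sham group of Ly6Clo cells, so treatment could be compared in Ly6Chi cells only. Cre acts in every Lyz2-expressing cell, neutrophils included, and reads outside the deleted part of Notch2 are still counted. Notch2 lay at 12656 to 20005 in the wt libraries and at 7240 to 11518 in the N2ΔMy libraries, without overlap.

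Granules of neutrophils are filled in the bone marrow in a fixed order. Azurophil (primary) granules, made by promyelocytes, hold myeloperoxidase and serine proteases such as elastase and proteinase 3. Specific (secondary) and gelatinase granules are filled later, and hold lipocalin 2, collagenase and antimicrobial peptides under control of C/EBP factors. Monocytes arise from progenitors shared with neutrophils, and part of this program is transcribed in monocyte precursors too. Several of these genes also belong to the acute phase response downstream of gp130 and STAT3.

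The promoter windows of 6 of the genes are shown first, because these genes were all higher in the same cells. Each runs from 250 bases before to 50 bases after the annotated start, 5′ to 3′ on the strand of the gene, as RefSeq gives it on GRCm38.p6. Windows were found for 9 of the 10 genes and none for Wfdc21. Capitals mark matches, on either strand, to TTGCNNAA (C/EBP), GAGGAA (PU.1) or TTCNNNGAA (STAT), where N is any base.
Lcn2 (chr2:32387690-32387989, - strand): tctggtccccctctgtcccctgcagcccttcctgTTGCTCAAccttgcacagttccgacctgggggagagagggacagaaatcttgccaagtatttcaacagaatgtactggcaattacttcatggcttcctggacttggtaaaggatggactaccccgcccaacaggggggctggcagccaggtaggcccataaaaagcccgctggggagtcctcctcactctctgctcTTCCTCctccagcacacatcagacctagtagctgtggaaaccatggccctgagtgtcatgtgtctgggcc
Mmp8 (chr9:7558179-7558478, + strand): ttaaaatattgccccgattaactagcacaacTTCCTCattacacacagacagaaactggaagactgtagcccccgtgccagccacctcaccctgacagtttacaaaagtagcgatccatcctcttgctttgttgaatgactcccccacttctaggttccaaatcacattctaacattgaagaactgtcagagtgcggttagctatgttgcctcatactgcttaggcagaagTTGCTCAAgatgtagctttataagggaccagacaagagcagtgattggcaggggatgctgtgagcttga
Prtn3 (chr10:79879417-79879716, + strand): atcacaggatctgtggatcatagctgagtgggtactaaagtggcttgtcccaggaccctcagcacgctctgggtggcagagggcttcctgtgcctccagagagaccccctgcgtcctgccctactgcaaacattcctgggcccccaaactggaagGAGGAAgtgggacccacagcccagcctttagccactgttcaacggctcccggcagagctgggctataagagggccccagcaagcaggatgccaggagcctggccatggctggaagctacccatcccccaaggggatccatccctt
Elane (chr10:79886062-79886361, + strand): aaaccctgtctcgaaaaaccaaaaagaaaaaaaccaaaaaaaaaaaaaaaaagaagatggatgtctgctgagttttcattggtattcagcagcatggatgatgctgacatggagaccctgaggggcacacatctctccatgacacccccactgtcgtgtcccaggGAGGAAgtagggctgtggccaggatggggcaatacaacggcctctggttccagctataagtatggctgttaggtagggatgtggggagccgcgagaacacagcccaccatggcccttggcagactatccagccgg
Chil3 (chr3:106167515-106167814, - strand): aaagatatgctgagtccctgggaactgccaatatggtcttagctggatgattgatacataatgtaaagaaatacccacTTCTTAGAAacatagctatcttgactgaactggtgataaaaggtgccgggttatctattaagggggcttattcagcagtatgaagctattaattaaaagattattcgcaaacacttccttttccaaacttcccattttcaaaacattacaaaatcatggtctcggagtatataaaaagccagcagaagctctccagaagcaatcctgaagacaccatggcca
Lrg1 (chr17:56121897-56122196, - strand): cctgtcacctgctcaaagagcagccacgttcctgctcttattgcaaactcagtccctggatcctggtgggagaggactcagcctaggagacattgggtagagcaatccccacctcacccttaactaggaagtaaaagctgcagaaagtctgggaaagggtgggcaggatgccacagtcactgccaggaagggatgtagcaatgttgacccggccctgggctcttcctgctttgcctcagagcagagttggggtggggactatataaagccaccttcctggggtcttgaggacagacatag
Lcn2 held its C/EBP match 216 bases before the start and Mmp8 held the identical letters 19 bases before the start. In Prtn3 and Elane, which lie 3073 bases apart on chromosome 10 in the same direction, GAGGAA stood 95 and 85 bases before the start. The STAT match of Chil3 lay 172 bases upstream, and Lrg1 held none of these letters in its window. Over the 9 genes, 4 held the C/EBP letters, 6 held the PU.1 letters and 1 held the STAT letters. Of all 32851 promoter windows of the same length, 10.8%, 28.3% and 8.3% did. A match is a description of letters only.

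**Figure D1:**
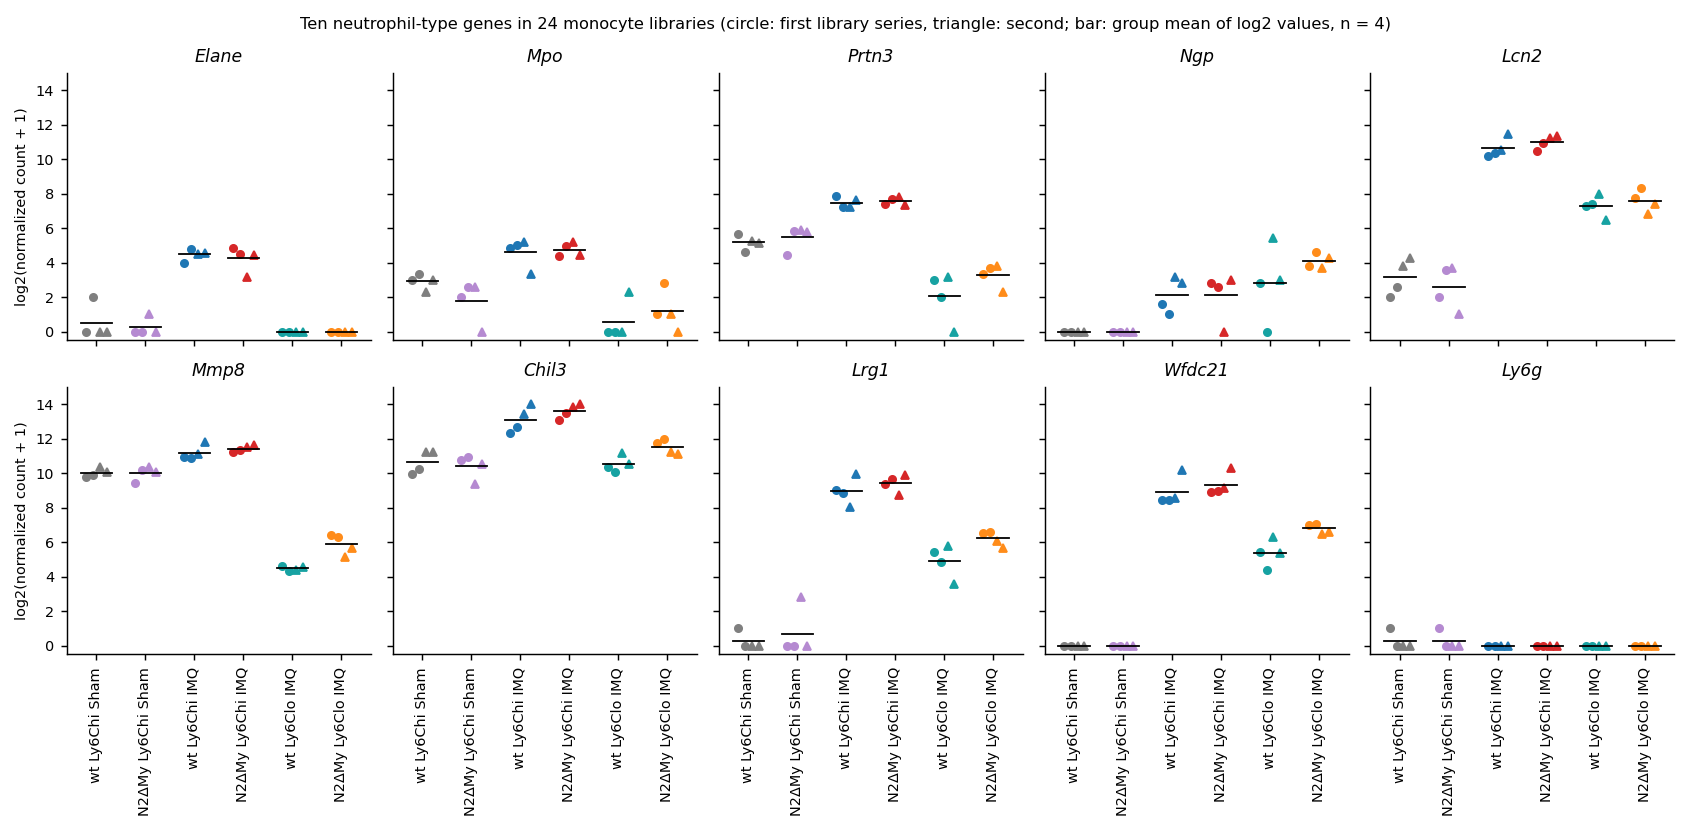
Log2 of the normalized count plus 1 (vertical axis) of each of the 10 genes in every library of the 6 groups (horizontal axis), with circles for the first and triangles for the second library series and a bar at the mean of the 4 log2 values. Lcn2, Lrg1 and Wfdc21 leave the bottom of the axis under IMQ, Mmp8 and Chil3 start high, and Ly6g stays at 0 in all IMQ libraries.

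Values were normalized counts, which the authors had scaled between libraries and rounded, and 1 read was worth 0.730 to 1.41 of these units. Inferred depth was 9522646 to 19759585 reads per library. Of the set, 6 genes (Mmp8, Lcn2, Lrg1, Chil3, Wfdc21 and Prtn3) reached 50 units in at least 1 library and entered the fits over 11230 genes, and the other 4 did not (highest values 43 for Ngp, 36 for Mpo, 28 for Elane and 1 for Ly6g). A difference was called when p, adjusted by Benjamini-Hochberg over all genes fitted, was 0.05 or less and the log2 difference was 0.6 or more in size. Because the treatment and subset patterns chose the genes, those differences are given as descriptions without p-values. The genes were not picked for a genotype difference, and genotype was tested. Their levels in both genotypes had been seen, so independence of these tests from the choice was not shown. The libraries carry 2 runs of library numbers, with replicates 1 and 2 in the first series and 3 and 4 in the second.

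Of the azurophil genes, Elane (ENSMUSG00000020125.7, chr10:79886247-79888215, + strand), the gene of neutrophil elastase, was read in 1 of 4 wt Sham libraries (3) and 1 of 4 N2ΔMy Sham libraries (1). Under IMQ it stood at 15, 27, 22 and 23 in wt Ly6Chi cells and at 28, 22, 8 and 21 in N2ΔMy Ly6Chi cells. It was at 0 in all 8 Ly6Clo libraries. Elane was thus read in all 8 IMQ Ly6Chi libraries, at low counts, and in 2 of the other 16 libraries.

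Mpo (ENSMUSG00000009350.13, chr11:87793581-87804413, + strand), the gene of myeloperoxidase, ordered the groups in the same way. It stood at 7, 9, 4 and 7 in wt and 3, 5, 5 and 0 in N2ΔMy Sham libraries, and at 28, 31, 36 and 9 in wt and 20, 30, 36 and 21 in N2ΔMy IMQ Ly6Chi libraries. In Ly6Clo cells it was between 0 and 6. The wt IMQ and Sham ranges touched at 9 (replicate 4 of the IMQ group), and the N2ΔMy ranges did not overlap.

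Prtn3 (ENSMUSG00000057729.12, chr10:79874476-79883174, + strand), the gene of proteinase 3, had the highest level per kilobase of these 3. Its counts in Sham libraries were 49, 24, 37 and 35 in wt and 21, 56, 58 and 55 in N2ΔMy. Under IMQ they were 234, 150, 151 and 195 in wt and 166, 206, 224 and 164 in N2ΔMy. All 8 IMQ values lay above all 8 Sham values, with a log2 difference of 2.32 (SE 0.26) in wt and 2.07 (SE 0.32) in N2ΔMy. In Ly6Clo cells Prtn3 stood at 7, 3, 8 and 0 in wt and at 9, 12, 13 and 4 in N2ΔMy. Prtn3 overlaps Plppr3 on the opposite strand, and the strand setting of the counting was not given in the sources used here, so reads of the pair cannot be told apart with certainty. Plppr3 moved alongside, from 51 to 70 in wt Sham to 83 to 183 in wt IMQ Ly6Chi cells and 0 to 17 in wt Ly6Clo cells.

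Among the specific granule genes, Lcn2 (ENSMUSG00000026822.14, chr2:32384633-32388252, - strand) differed most with treatment. It encodes lipocalin 2, which withholds iron from bacteria by binding their siderophores. Its counts were 3, 5, 13 and 18 in wt and 3, 11, 12 and 1 in N2ΔMy Sham Ly6Chi libraries. After IMQ they were 1151, 1325, 1470 and 2861 in wt and 1427, 1966, 2370 and 2640 in N2ΔMy. The ratio of group means was 175 in wt and 311 in N2ΔMy, with log2 differences of 7.48 (SE 0.47) and 8.43 (SE 0.55) and no overlap. The Sham values are only a few reads, so these ratios carry the counting error of their denominators.

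In Ly6Clo cells Lcn2 stood at 154, 167, 248 and 88 in wt and at 216, 324, 114 and 167 in N2ΔMy, and the groups overlapped. These levels were 9.65% and 9.77% of the IMQ Ly6Chi means of the same genotype. Every Ly6Clo library under IMQ still held more Lcn2 than any Sham Ly6Chi library.

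Mmp8 (ENSMUSG00000005800.3, chr9:7558456-7568485, + strand), the gene of neutrophil collagenase, was abundant before treatment. It stood at 871, 965, 1342 and 1091 in wt and 706, 1193, 1329 and 1096 in N2ΔMy Sham Ly6Chi cells. Under IMQ it stood at 2012, 1936, 2204 and 3660 in wt and at 2420, 2609, 2936 and 3253 in N2ΔMy, all above every Sham value. The difference was the smallest of the 4 genes for which a fold could be given, 2.30-fold in wt (log2 1.17, SE 0.20) and 2.59-fold in N2ΔMy (log2 1.40, SE 0.18). In Ly6Clo cells Mmp8 stood at 24, 19, 20 and 23 in wt and at 86, 79, 35 and 50 in N2ΔMy. That was 0.877% and 2.23% of the IMQ Ly6Chi means, the lowest share of any of the 6 genes fitted.

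Ngp (ENSMUSG00000032484.8, chr9:110419747-110423012, + strand), neutrophilic granule protein, was the exception in direction between subsets. It was at 0 in all 8 Sham libraries and at 0 to 8 in IMQ Ly6Chi cells. In Ly6Clo cells it stood at 6, 0, 43 and 7 in wt and 13, 24, 12 and 18 in N2ΔMy. The N2ΔMy Ly6Clo libraries lay above all IMQ Ly6Chi libraries, while the wt Ly6Clo mean rested on the value of 43 in replicate 3.

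Of the secreted proteins, Chil3 (ENSMUSG00000040809.10, chr3:106147554-106167564, - strand), the chitinase-like protein Ym1, had the highest level per kilobase. Its counts were 1017, 1200, 2412 and 2442 in wt and 1743, 2011, 672 and 1469 in N2ΔMy Sham cells. Under IMQ they were 5103, 6612, 11144 and 16990 in wt and 8812, 11517, 14922 and 16599 in N2ΔMy. The groups did not overlap, with ratios of means of 5.64 in wt (log2 2.45, SE 0.39) and 8.80 in N2ΔMy (log2 3.21, SE 0.32). In N2ΔMy cells the log2 difference was 2.43 in the first library series and 3.98 in the second. In Ly6Clo cells Chil3 had the largest share of the 6 fitted genes, at 1336, 1076, 2335 and 1512 in wt and 3489, 4051, 2386 and 2278 in N2ΔMy, or 15.7% and 23.5% of the IMQ Ly6Chi means. Its near copy Chil4 was between 0 and 9 in all libraries.

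Lrg1 (ENSMUSG00000037095.7, chr17:56119680-56121946, - strand), leucine-rich alpha-2 glycoprotein, is a secreted acute phase protein. It was listed at 0 in 6 of 8 Sham libraries, with single values of 1 (wt) and 6 (N2ΔMy). Under IMQ it stood at 520, 456, 259 and 1005 in wt and 677, 809, 427 and 970 in N2ΔMy Ly6Chi cells. No fold is given, since 3 of 4 libraries of each Sham group were at 0. In Ly6Clo cells Lrg1 was 43, 28, 54 and 11 in wt and 91, 97, 67 and 50 in N2ΔMy.

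Wfdc21 (ENSMUSG00000051748.2, chr11:83746940-83752642, + strand), a small protein with a four-disulfide core, was listed at 0 in all 8 Sham libraries. Under IMQ it stood at 346, 349, 375 and 1163 in wt and at 476, 509, 558 and 1257 in N2ΔMy Ly6Chi cells, with replicate 4 far above the other three in both. In Ly6Clo cells it was 42, 20, 77 and 40 in wt and 128, 135, 90 and 97 in N2ΔMy. Every IMQ library of either subset thus held Wfdc21, and no Sham library did.

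Ly6g (ENSMUSG00000022582.4, chr15:75155240-75159126, + strand), the antigen of the Ly6G antibody, was read as 1 in 1 wt and 1 N2ΔMy Sham library. It was 0 in the other 22 libraries, including all 16 under IMQ. A count of 0 allows a level of up to 3 reads, worth 2.19 to 4.23 units.

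Per kilobase of annotated gene length, the order of levels in IMQ Ly6Chi cells was the same in both genotypes. In wt cells Chil3 led with 6104 ± 3274 per kb (SD, n = 4), followed by Wfdc21 with 1286 ± 929, Mmp8 with 1012 ± 335, Lcn2 with 649 ± 299 and Lrg1 with 415 ± 234. Prtn3 followed with 105 ± 23.2, Elane with 22.1 ± 5.07, Mpo with 7.59 ± 3.45 and Ngp with 3.48 ± 2.70, all per kb. The ranges of the neighbours Wfdc21 and Mmp8, Mmp8 and Lcn2, and Lcn2 and Lrg1 overlapped between libraries in both genotypes. Within each of the 8 libraries Mmp8 nevertheless lay above Lcn2 and Lcn2 above Lrg1, while Wfdc21 lay above Mmp8 in 4 of 4 N2ΔMy and 2 of 4 wt libraries. Chil3 stood apart above this block and Prtn3 below it in every library. By mean per kb, Chil3 ranked 49 in wt and 41 in N2ΔMy cells among all 53715 genes.

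All 6 fitted genes were called higher under IMQ in Ly6Chi cells, in wt and in N2ΔMy mice alike. Among all 11230 genes fitted, 4.43% were called higher in wt and 4.15% in N2ΔMy cells. The 2 groups of each gene did not overlap, as was so with IMQ higher for 9.93% of all genes in wt and 9.87% in N2ΔMy cells. These counts only restate how the genes were chosen. They stayed at 6 in each genotype without any one replicate and within each library series. In these bulk libraries, more cells with an RNA and more RNA per cell cannot be told apart.

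**Figure D2:**
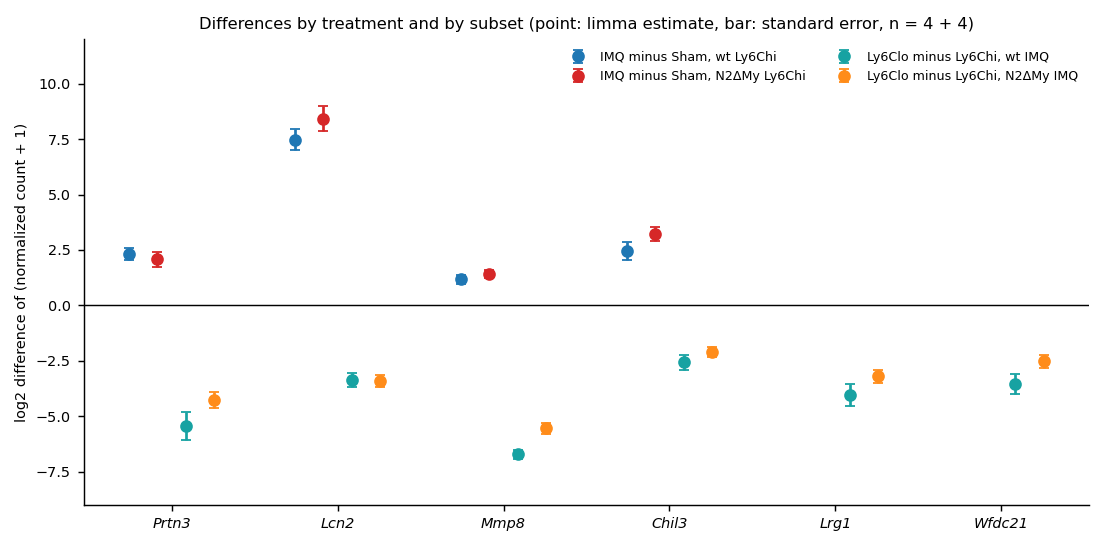
Log2 differences with their standard errors (vertical axis) for the 6 fitted genes (horizontal axis), between IMQ and Sham Ly6Chi cells and between Ly6Clo and Ly6Chi cells under IMQ, by genotype (8 libraries each). Treatment differences run from 1.17 for Mmp8 to 8.43 for Lcn2, all subset differences are negative, and Lrg1 and Wfdc21 have no treatment point because at least 3 of 4 libraries of each Sham group were listed at 0.

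In Ly6Clo against Ly6Chi cells under IMQ all 6 were called lower in both genotypes. Of all genes fitted, 12.7% were called lower in wt and 8.38% in N2ΔMy cells, and again nothing is read from the count. The log2 differences ran from -6.72 (SE 0.21) for Mmp8 over -5.45 (SE 0.63) for Prtn3, -4.04 (SE 0.49) for Lrg1, -3.54 (SE 0.45) for Wfdc21 and -3.36 (SE 0.33) for Lcn2 to -2.57 (SE 0.35) for Chil3 in wt cells. In N2ΔMy cells Mmp8 again differed most, by -5.54 (SE 0.25), and Chil3 least, by -2.09 (SE 0.23). The genes did not differ in proportion. The count of Chil3 was 2.54 to 5.06 times that of Mmp8 in wt IMQ Ly6Chi libraries and 55.7 to 117 times in wt Ly6Clo libraries. The count of Lcn2 was 2.46 to 3.92 times that of Wfdc21 in wt Ly6Chi and 2.2 to 8.35 times in wt Ly6Clo libraries. In N2ΔMy it was 2.1 to 4.25 times and 1.27 to 2.4 times.

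The genes also varied together between libraries of 1 group. In the 8 IMQ Ly6Chi libraries, deviations of log2 values from the group mean correlated across the 10 pairs without Prtn3 with Pearson's r from 0.26 to 0.96 (median 0.84). The highest value was between Lcn2 and Mmp8 (r = 0.96) and the lowest between Chil3 and Lrg1 (r = 0.26). Prtn3 stood outside this block, with r from -0.11 to 0.16 to the other 5 genes. These are descriptions over 8 libraries that share groups, series and scaling. Replicate 4 of wt lay above its group mean for 6 of 6 genes and replicate 4 of N2ΔMy for 5 of 6, while replicate 2 of wt and replicate 1 of N2ΔMy lay above it for 0 of 6.

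**Figure D3:**
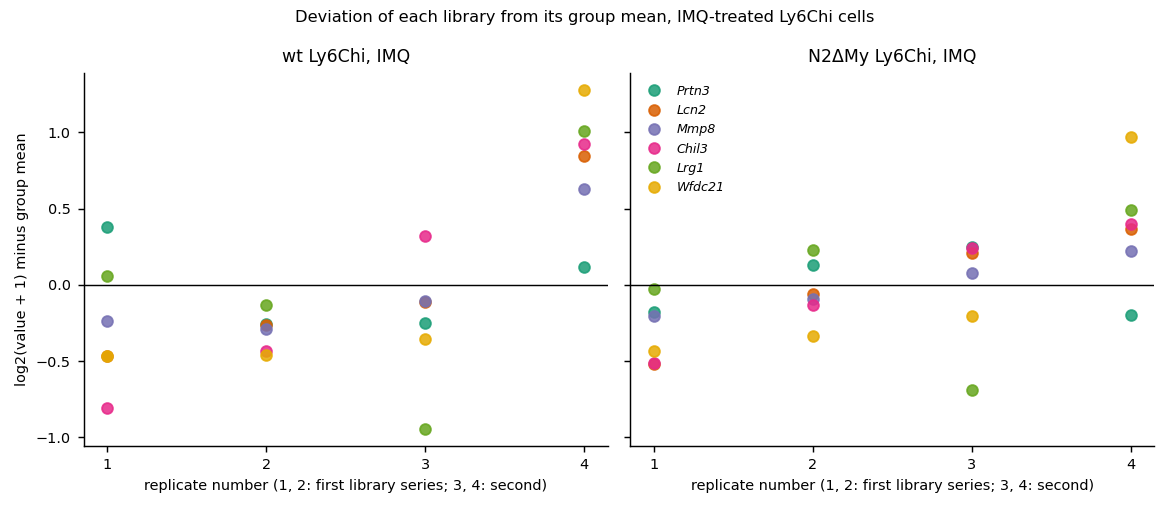
Deviation of log2(normalized count + 1) from the mean of the group (vertical axis) for the 6 fitted genes in each IMQ-treated Ly6Chi library (horizontal axis, replicate number), wt on the left and N2ΔMy on the right. In both panels replicate 4 lies highest for Wfdc21, by 1.28 in wt and 0.97 in N2ΔMy, and Prtn3 follows another order.

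Over all 24 libraries, the closest patterns were sought among the 11230 genes by Pearson's r of log2 values, as a description dominated by the differences between groups. Lcn2, Lrg1 and Wfdc21 named each other: Lrg1 and Wfdc21 at r = 0.98, Lcn2 and Wfdc21 at r = 0.97, and Lcn2 and Lrg1 at r = 0.97. S100a9 was also among the 3 nearest genes of Lcn2 (r = 0.96) and Wfdc21 (r = 0.98), and Clmn among those of Lrg1 (r = 0.96). Mmp8 was followed by Tmem173, C3 and P4hb (each r = 0.98), Chil3 by Gpx3 (r = 0.93), Atp5j (r = 0.92) and Pycard (r = 0.90). The gene nearest to Prtn3 was RP23-230C2.2 (r = 0.96), followed by Ifi30 and Dpp9 (each r = 0.95).

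Other neutrophil genes were read from lists of azurophil, granule and circulating neutrophil genes with the 10 genes left out, 42 genes of which 24 were fitted. In wt Ly6Chi cells 9 of the 24 were called higher and 1 lower under IMQ, in N2ΔMy cells 10 higher and 1 lower (limma, Benjamini-Hochberg adjusted p), where 5.07% and 4.55% of all genes were called lower. The 10 include Mmp9, which stood at 16 or less in all these libraries, overlapped between groups and was fitted only through Ly6Clo values. Genes near 0 in Sham cells passed the filter only through groups in which they were high, so these counts are descriptions. This held for S100a8, S100a9, Fpr1 and Trem1, whose adjusted p-values for treatment are descriptions too. The median log2 difference of the 24 was 0.59 in wt and 0.88 in N2ΔMy, beside 0.01 in wt and 0.005 in N2ΔMy over all genes. S100a8, a subunit of calprotectin, stood at 0 to 11 in wt Sham and 545 to 3257 in wt IMQ libraries (log2 8.46, SE 0.84, adjusted p = 0.000148). Its partner S100a9 was listed at 0 in all wt Sham libraries and stood at 499 to 1651 under IMQ (adjusted p = 1.21e-06).

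Among the further genes of these lists that rose were Fpr1, Trem1 and Slpi. Fpr1, a receptor for formylated bacterial peptides, rose from 9.5 ± 3.79 to 143 ± 31.1 in wt Ly6Chi cells (SD, n = 4, adjusted p = 7.5e-05) and Trem1, an amplifying receptor, from 3.00 ± 2.94 to 33.8 ± 11.4 (adjusted p = 0.00544). Slpi, a protease inhibitor, rose from 135 ± 50.4 to 411 ± 121 (adjusted p = 0.0036). Unlike the 6 fitted genes, Fpr1 was higher still in Ly6Clo cells, at 714 ± 279 in wt (log2 2.25 above Ly6Chi, SE 0.28, adjusted p = 0.000114), and so was Pglyrp1 (log2 2.13, SE 0.27, adjusted p = 0.000137). In Ly6Clo against Ly6Chi cells, 11 of the 24 were called lower and 4 higher in wt, and 10 lower and 5 higher in N2ΔMy, beside 11.9% and 9.01% of all genes called higher. The 5 include Mmp9, which passed the filter only through the mutant Ly6Clo libraries. Among those lower in wt was Cd177 (log2 -5.57, SE 0.44, adjusted p = 5.27e-06).

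Cd177, a neutrophil surface protein, was the 1 gene of the 24 called lower under IMQ in each genotype, while others, such as Csf3r in wt (log2 -0.46, adjusted p = 0.00713), lay lower by less than the size needed for a call. Cd177 was high in Sham Ly6Chi cells, at 3478 ± 337 in wt and 3632 ± 249 in N2ΔMy, and fell under IMQ by 1.35 (SE 0.11, adjusted p = 7.38e-05) and 0.79 (SE 0.16, adjusted p = 0.00849) on the log2 scale. Markers that define circulating neutrophils otherwise stayed near 0 in Ly6Chi cells. Camp, Asprv1 and Stfa2l1 were at 0 in all 8 Sham and all 4 wt IMQ Ly6Chi libraries. The summed level of the 9 defining markers other than Cd177 was 1 to 11 in wt Sham, 2 to 47 in N2ΔMy Sham, 10 to 37 in wt IMQ and 16 to 47 in N2ΔMy IMQ Ly6Chi libraries, and these ranges of Sham and IMQ libraries met. With Cd177 it was 3127 to 3821, 3471 to 3999, 1128 to 1571 and 1537 to 2763. The sum without Cd177 was 2 to 148 in wt and 74 to 222 in N2ΔMy Ly6Clo libraries. In N2ΔMy its largest part was Mmp9, with a mean of 71.8, beside 16.8 for Ngp.

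**Figure D4:**
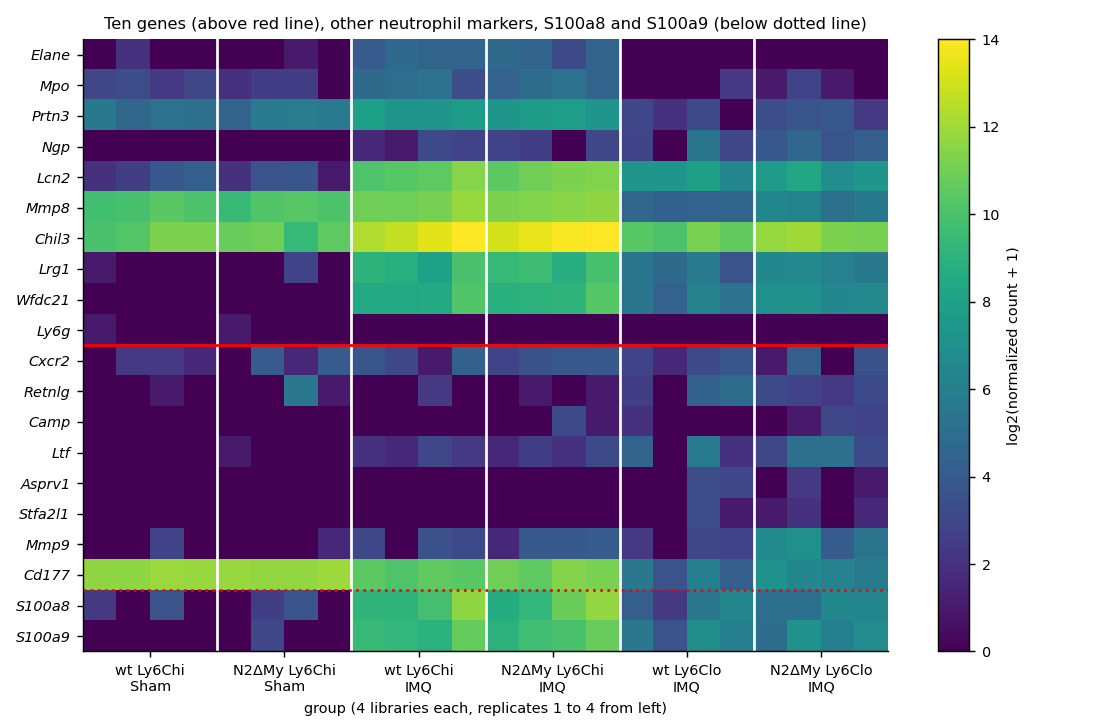
Colour gives log2(normalized count + 1) of each gene (rows) in each of the 24 libraries (columns, 4 per group): the 10 genes above the red line, further neutrophil markers below it, and S100a8 and S100a9 under the dotted line. The IMQ Ly6Chi block brightens for Lcn2, Lrg1, Wfdc21, S100a8 and S100a9, while Cxcr2, Retnlg, Camp, Ltf, Asprv1 and Stfa2l1 stay at 19 or less in these 8 libraries and Cd177 is brightest in Sham cells.

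Markers of dividing cells were higher under IMQ as well. Mki67, a marker of dividing cells, stood at 267 ± 101 in wt Sham and 1699 ± 496 in wt IMQ Ly6Chi libraries (log2 2.71, SE 0.28, adjusted p = 0.000188), and at 235 ± 67.4 and 1284 ± 295 in N2ΔMy (log2 2.46, SE 0.22, adjusted p = 0.000142). Top2a, a topoisomerase of dividing cells, stood at 47.8 ± 8.62 and 204 ± 18.9 in these wt groups (log2 2.09, SE 0.20, adjusted p = 0.00012). Kit, a receptor, and Cd34, a surface protein, both of early progenitors, had means of 2.5 and 19.3 in wt Sham and of 0.5 and 5.75 in wt IMQ Ly6Chi cells. The summed level of the 8 precursor and cycling markers, a list that holds Elane, Mpo and Prtn3 and whose largest part is Mki67, was 266 to 496 and 1690 to 2876 in these wt groups and 292 to 503 and 1353 to 2120 in N2ΔMy. It was 199 to 455 in wt and 283 to 823 in N2ΔMy Ly6Clo libraries. Their part in the result was not tested. The 8 Ly6Chi markers, of which Fn1 made up the largest part, summed to 169797 to 222231 in wt Sham and 167150 to 204057 in wt IMQ Ly6Chi libraries, and to 193178 to 223163 and 228714 to 276512 in those of N2ΔMy, where the ranges did not overlap. Single markers differed in direction in wt cells, with Vcan higher under IMQ (log2 1.84, SE 0.14, adjusted p = 4.46e-05) and Ccr2 at 19172 ± 436 in Sham and 13274 ± 542 in IMQ libraries (log2 -0.53, below the size needed for a call).

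Of 9 granulocyte transcription factors, 8 were fitted and 1 was called higher under IMQ in either genotype. This was Cebpe, the C/EBP factor of late granule genes, which rose from 11.8 ± 3.59 to 36.5 ± 5.32 in wt (adjusted p = 0.0112) and from 11.3 ± 6.55 to 52.5 ± 10.1 in N2ΔMy cells (adjusted p = 0.00388). Cebpe reached 50 only in N2ΔMy IMQ Ly6Chi libraries, so it was fitted through the group in which it was highest. Cebpa was called lower in N2ΔMy cells, by 0.76 on the log2 scale (SE 0.19, adjusted p = 0.0223). Of 15 genes of the gp130 and STAT3 response other than members, 14 were fitted, and 3 were called higher in both genotypes. Saa3, an acute phase apolipoprotein, rose from 9.0 ± 6.78 to 1398 ± 847 in wt (adjusted p = 2.46e-05), Socs3, the feedback inhibitor of the pathway, from 804 ± 123 to 2349 ± 520 (adjusted p = 0.000194), and Hp, haptoglobin, from 5151 ± 753 to 8551 ± 1634 (adjusted p = 0.00667). Saa3 was near 0 in Sham cells and passed the filter only through IMQ groups, so its adjusted p is a description. The median of these 14 was -0.22 in wt and -0.17 in N2ΔMy, and the genes of the list differed in both directions. Fgl2 was called lower in wt cells (log2 -0.60, SE 0.15, adjusted p = 0.0178).

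Notch2 deficiency was then compared within each kind of cell. The genes had not been picked for this comparison, but their levels in both genotypes had been seen beforehand. In Sham Ly6Chi cells Wfdc21, at 0 in all 8 libraries, and Lrg1, at 0 in 3 of 4 libraries of each group, gave no testable difference. Of the other 4 fitted genes 0 were called by limma, beside 0.0178% of all genes, and Lcn2 among them stood at 18 or less and had passed the filter through its IMQ values. The log2 differences were -0.001 for Mmp8 (SE 0.20), -0.26 for Chil3 (SE 0.38), -0.59 for Lcn2 (SE 0.73) and 0.32 for Prtn3 (SE 0.38), with unadjusted p from 0.421 to 0.996. In IMQ Ly6Chi cells 0 of 6 were called, beside 0.0267% of all genes. All 6 lay slightly higher in N2ΔMy, from 0.07 (SE 0.19) for Prtn3 to 0.49 (SE 0.35) for Chil3, with overlapping groups, unadjusted p from 0.188 to 0.716 and adjusted p from 0.898 to 0.98. The change of the treatment difference with genotype was called for 0% of the genes fitted (0 genes, and 177 at an unadjusted p under 0.05), and for the 4 members with a value the unadjusted p was 0.197 or more. No p here shows that the genotypes were alike. Of the 24 other neutrophil genes 0 were called in either kind of Ly6Chi cell, and with the replicate block 1 was called in Sham and 3 in IMQ cells. Clec4d did not overlap between genotypes in either, at 53 to 112 against 153 to 173 in Sham (adjusted p = 0.879) and 96 to 151 against 166 to 332 in IMQ cells (adjusted p = 0.337). Of all genes, 1.42% and 2.13% did so with N2ΔMy higher.

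In IMQ-treated Ly6Clo cells 3 of the 6 were called higher in N2ΔMy than in wt, Mmp8, Chil3 and Wfdc21, beside 3.12% of all genes. Mmp8 stood at 62.5 ± 24.1 against 21.5 ± 2.38 (log2 1.42, SE 0.34, adjusted p = 0.0353), and its groups did not overlap. Wfdc21 stood at 113 ± 22.3 against 44.8 ± 23.7 (log2 1.44, SE 0.37, adjusted p = 0.0442), also without overlap. The exact permutation test gave p = 0.0286 for both, the smallest that 70 splits allow. Groups without overlap and with the mutant higher made up 6.62% of all genes. Chil3 stood at 3051 ± 862 against 1565 ± 544 (log2 0.98, SE 0.25, adjusted p = 0.0411), with the lowest mutant value just under the highest wt value (exact permutation p = 0.0571).

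The other 3 were not called. Lrg1 was 76.3 ± 21.8 against 34.0 ± 18.7 (log2 1.30, SE 0.46, adjusted p = 0.142), and was called when the replicate number was a block (adjusted p = 0.0225). Prtn3, at 13 or less in these 8 libraries and fitted only through its Ly6Chi values, was 9.5 ± 4.04 against 4.50 ± 3.70 (adjusted p = 0.448) and Lcn2 205 ± 89.5 against 164 ± 65.7 (adjusted p = 0.713). With 3 libraries a group, 0 members were called without replicate 1, without replicate 2 and without replicate 4, and with 2 libraries a group 0 were called within the second series. Over the 4 fits with 1 replicate left out the log2 difference was 1.22 to 1.63 for Mmp8, 0.67 to 1.30 for Chil3 and 1.02 to 1.85 for Wfdc21. The differences were larger in the first series than in the second, 1.90 and 0.93 for Mmp8, 1.65 and 0.31 for Chil3, 2.14 and 0.74 for Wfdc21, and 1.41 and 1.20 for Lrg1.

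**Figure D5:**
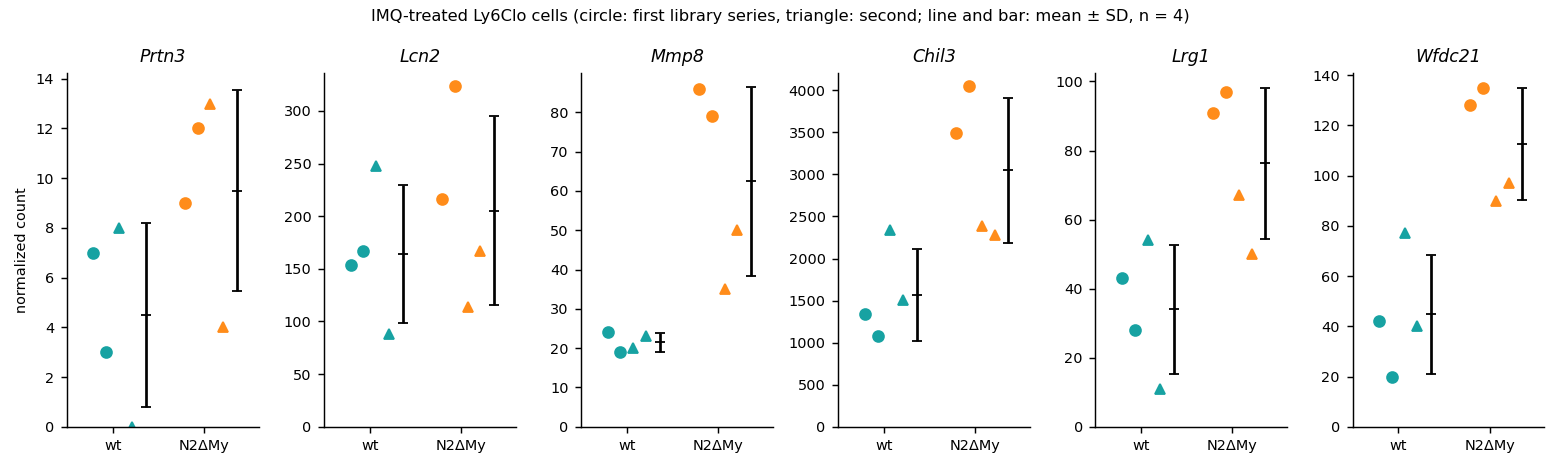
Normalized counts (vertical axis, from 0, each gene on its own scale) of the 6 fitted genes in the 4 wt and 4 N2ΔMy Ly6Clo libraries after IMQ, with circles for the first and triangles for the second library series and mean ± SD beside them. Mmp8 and Wfdc21 do not overlap between genotypes, and the mutant libraries of the first series lie above those of the second for Mmp8, Chil3, Lrg1 and Wfdc21.

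Several markers of Ly6Chi monocytes, though not all, were also higher in the N2ΔMy Ly6Clo libraries. The 8 Ly6Chi markers summed to 4052 to 7375 in wt and 37790 to 68806 in N2ΔMy Ly6Clo libraries, with 4 of the 8 called higher in N2ΔMy (Vcan, F13a1, Fn1 and Ccr2) and none of them at 0. Vcan, versican, was 104 ± 38.6 in wt and 1424 ± 525 in N2ΔMy (log2 3.75, SE 0.32, adjusted p = 0.000156). Fn1 made up the largest part of the sum. Mgst1 went the other way, with means of 470 in N2ΔMy and 679 in wt. Its difference (log2 -0.53, SE 0.12, limma adjusted p = 0.0262) was below the size needed for a call. Ly6c2 and Ms4a4c were not called. The 8 Ly6Clo markers summed to 149993 to 172689 and 86475 to 103247. Their part in the result was not tested.

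Of the other neutrophil genes, 4 of 24 were called higher in N2ΔMy Ly6Clo cells and 0 lower (1.67% of all genes were lower), 9 were called with the replicate block, and 0 without replicate 1 or without replicate 2. The 4 were Mmp9, a gelatinase (71.8 ± 52.6 against 4.25 ± 3.10, log2 3.76, SE 0.81, adjusted p = 0.0212), the lectin receptor Clec4d (log2 2.08, SE 0.46, adjusted p = 0.0224), Padi4, which citrullinates histones (log2 1.82, SE 0.36, adjusted p = 0.0129), and Mcemp1 (log2 0.63, SE 0.15, adjusted p = 0.032). Mmp9 was at 16 or less in all Ly6Chi libraries, against 16 to 131 in the mutant Ly6Clo libraries, and passed the filter of 50 only through the group in which it was then called higher, so its call is not support for the count. With no filter 0 of the list were called. In the STAT3 list Socs3 was called lower in N2ΔMy Ly6Clo cells (log2 -0.80, SE 0.09, adjusted p = 0.000437), and Fgl2 and Il6st were called higher.

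Whether the genotype difference itself differed between subsets was tested with the interaction over 16 libraries. None of the 6 was called, that is 0 of 6 beside 1.03% of all genes. Mmp8 came nearest, with a genotype difference larger in Ly6Clo than in Ly6Chi cells by 1.18 (SE 0.35, unadjusted p = 0.00349, adjusted p = 0.161), which was called within the first library series (adjusted p = 0.00692). Wfdc21 followed with 1.02 (SE 0.59, adjusted p = 0.8). A larger effect of Notch2 deficiency on this set in Ly6Clo than in Ly6Chi cells was not shown. In simulated data the same interaction fit called 31% of the genes changed 2-fold, so absence of a call does not show equal effects.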

How the data were processed

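Total RNA of sorted PB monocytes was sequenced as 75 bp single reads from stranded libraries amplified with 11 PCR cycles. The authors aligned reads to GRCm38.p6 with GENCODE M17 in nf-core/rnaseq and normalized counts with DESeq2. The submitters' processing notes name Trim Galore 0.4.4 and STAR 2.5.3a, and the read counter is not given in the sources used here. The deposited values are scores, that is normalized counts rounded to whole numbers, so no count model was used. Depth was inferred from which whole numbers occur, and spread is the SD of the 4 libraries of a group. Scaling to a common level can hide a change of total RNA.

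log2(value + 1) was fitted with limma 3.58.1 (lmFit and eBayes with a trend) in R 4.3.3 on the 8 libraries of 2 groups, or 16 for interactions, for genes with at least 50 in at least 1 library, and 2-sided exact permutation tests were run for single genes. The pipeline was tested on simulated data. The labels number the libraries without saying that each is another mouse, so p-values measure the spread between libraries. Same-numbered libraries deviated from their group means together (correlation of 0.16 or more for every pair in every 2-group comparison). The number was also fitted as a block. With deviations taken within a library series, the mean correlation for treatment was 0.011 in wt and -0.011 in N2ΔMy. It was 0.11 to 0.24 in the other 2-group comparisons. The members and gene lists were chosen with earlier results of these data known. Named genes were the 10 members, up to 4 called genes with the largest difference per list and comparison and all genes of counts of 5 or fewer, the 3 genes nearest to each member over 24 libraries, and the highest defining markers. Clec4d in Ly6Chi cells was named, and the marker sum without Cd177 added, after the data were seen. The values of 1 list gene that this rule names are not reported here. Alternatives varied the pseudocount, filter, normalization, blocking, library series and libraries left out.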

Additional observations from a re-analysis of the deposited data

Results flagged for a closer look

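In 26 groups of 4 libraries in which a member reached 50, 4 held a library that stood far from the others by Dixon's criterion, which flags about 1 in 20 groups by chance. In IMQ Ly6Chi cells the highest library was replicate 4 each time, at 1163 for Wfdc21 in wt (the others 346 to 375), at 1257 for Wfdc21 in N2ΔMy (the others 476 to 558) and at 3660 for Mmp8 in wt (the others 1936 to 2204). In Sham N2ΔMy Ly6Chi cells the lowest library was replicate 1, at 21 for Prtn3 (the others 55 to 58).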

How the results depend on the processing

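Under the 16 alternatives the 6 members called by treatment and by subset were called each time, and with no filter on low values 7 were called by treatment in N2ΔMy and 8 by subset in each genotype. In N2ΔMy against wt Ly6Clo cells the count of 3 became 0 with no filter on low values, 0 in the second library series, 1 with limma without a trend, and 0 to 3 when 1 replicate was left out. In the subset interaction 1 member, Mmp8, was called in the first library series. Genotype differences that reversed had not been called. In Sham cells they were 0.50 for Lcn2, 0.002 for Mmp8 and 0.76 for Chil3 in the first library series, and with 1 replicate left out ran from -1.12 to 0.30 for Lcn2, -0.10 to 0.10 for Mmp8 and -0.61 to 0.26 for Chil3. In IMQ Ly6Chi cells Prtn3 was -0.019 in the first library series and ran from -0.095 to 0.26 with 1 replicate left out. For Lcn2 the Ly6Clo difference was -0.099 in the second library series, the treatment interaction was -0.061 in the first, and the subset interaction was 0.28 in the first and -0.41 to 0.53 with 1 replicate left out. The cause was not tested. All genes called by genotype in Ly6Clo cells numbered 537, against 939 with the replicate block, 830 with the library series as a covariate, 215 with no filter, 180 in the second series and 249, 276 and 355 without replicates 1, 2 and 4. In IMQ Ly6Chi cells they numbered 3, against 54 with the replicate block and 29 with the covariate, and in the subset interaction 116, against 271 and 210, 18 in the second series and 28, 33 and 46 without replicates 1, 2 and 4. By treatment they numbered 1066 in wt, against 592 in the second series and 681 without replicate 2, and 977 in N2ΔMy, against 611 without replicate 4. Of the 24 other neutrophil genes, 4 were called by genotype in Ly6Clo cells, against 0 with no filter or in the second series, 2 without a trend or without replicate 4 and 8 with the covariate, and 11 by treatment in N2ΔMy, against 5 with no filter. Apart from Lrg1 in Ly6Clo cells, the replicate block changed no call of a member. At this depth, differences of a few units were not resolvable.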

Other observations

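Markers of other blood cells were read in the sorted monocytes as well. The 6 erythroid markers summed to 0 to 1547 normalized counts over the 24 libraries, with 0 reached in N2ΔMy libraries of every kind of cell. The 5 platelet markers summed to 21 to 85 in wt and 27 to 53 in N2ΔMy Sham Ly6Chi libraries, to 49 to 139 and 74 to 130 in IMQ Ly6Chi libraries, and to 115 to 273 and 56 to 167 in Ly6Clo libraries. The 6 B cell markers summed to 2052 to 3872 in Sham Ly6Chi, 1222 to 2764 in IMQ Ly6Chi and 808 to 2018 in Ly6Clo libraries. The 6 T and NK cell markers summed to at most 22, and those of basophils, eosinophils and mast cells to at most 25.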
